A study of Mus musculus with 5 samples.

Results

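RAP1 peaks that lie in runs of 5 or more were examined in mouse embryonic fibroblasts. The deposited peak list was sorted by position, and peaks were joined into a group when the gap from the end of one to the start of the next was at most 10 kb. Groups of 5 or more peaks on chromosomes 1 to 19 were taken, leaving out peaks in 1 Mb bins that hold 40 or more listed peaks and peaks before 4 Mb on chromosome 11. This gave 533 peaks in 93 groups, of 30398 peaks in the whole list (1.75%). The rule left out 19 autosomal groups with 190 peaks, and no group lost only some of its peaks. The members were chosen by the measured positions of the peaks and the number of their neighbours, so spacing and group size are given here as a description.

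The study comprised 5 libraries of genomic DNA: 2 RAP1 immunoprecipitates from wild-type fibroblasts, 2 from fibroblasts deleted for Rap1, and 1 input without antibody. All of the cells carried the SV40 large T antigen, a viral protein that inactivates p53 and the retinoblastoma protein, and were grown with puromycin. The immunoprecipitated lines were of mixed background, and the labels do not say how Rap1 was deleted. The list holds a positive and a negative read set with no value for any single library. Following the design text, the positive set was read as wild-type and the negative set as Rap1-deleted, so no value below has a spread between replicates. Whether reads of the input entered the negative set is not stated. Library totals were not used, and sequencing depth is therefore unknown here.

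RAP1 is a subunit of shelterin, the complex that protects telomeres. It does not hold telomeric repeats by itself but is brought there through TRF2, a shelterin subunit that binds the TTAGGG repeat directly. Outside telomeres, mammalian RAP1 is known to associate with chromosome-internal sites, some of them with interstitial telomere-like repeats, and to take part in gene regulation. The sequence and annotation of mm9, the build of the coordinates per the submitters' processing notes, were not used here. The groups are therefore named by position, and no gene or motif is assigned to them.

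Groups were found on all 19 autosomes, but in unequal numbers. Chromosome 11 held 13 groups with 72 peaks, chromosome 15 held 12 with 62, and chromosome 1 held 9 with 57. These 3 chromosomes gave 13.5%, 11.6% and 10.7% of the grouped peaks, against 7.32%, 5.32% and 7.59% of all listed autosomal peaks. Chromosomes 2 and 8 each held 1 group of 5 peaks, 0.938% of the grouped peaks, although they hold 7.50% and 5.29% of the autosomal list. On chromosome 15, 3.89% of the listed peaks were grouped, whereas on chromosome 2 the share was 0.223%. The limit of 40 peaks per megabase takes groups away where peaks are dense, so these shares describe only the groups that remain.

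**Figure D1:**
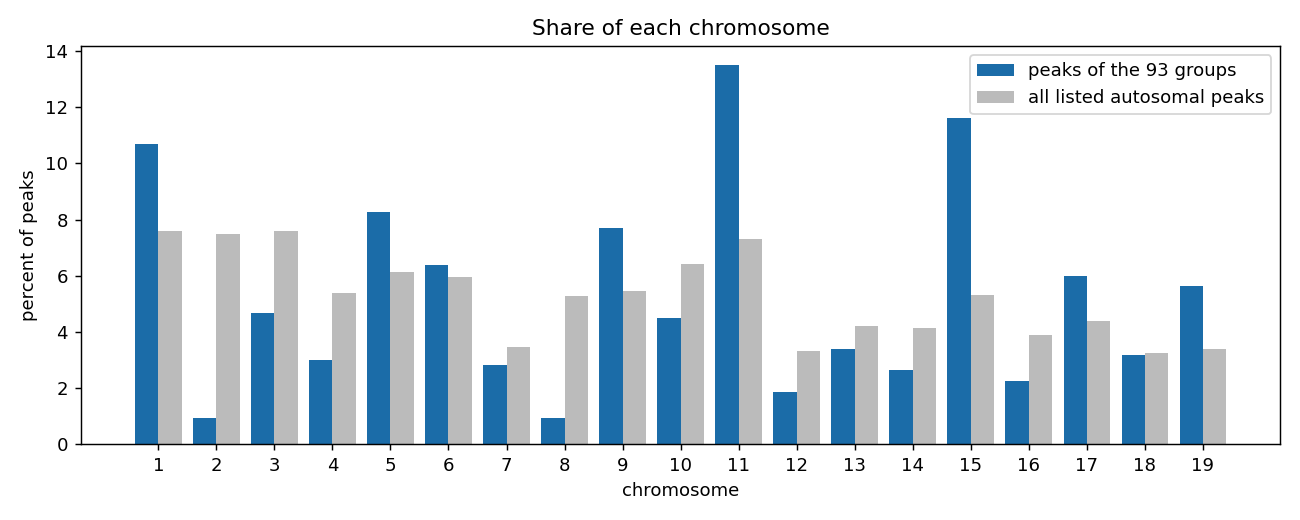
Share of each chromosome (horizontal axis) in the 533 grouped peaks (blue bars) and in all listed autosomal peaks (grey bars), in percent. The blue bars of chromosomes 11 and 15, at 13.5% and 11.6%, stand above their grey bars at 7.32% and 5.32%, and those of chromosomes 2 and 8 stand below.

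Most groups had no other group of the same kind within 1 Mb, but other listed peaks lay close by. At the median, the nearest listed peak outside a group was 19.6 kb away, and the megabase of a group held 26 listed peaks. The median distance from a group to the next group of the same kind was 3033 kb over the 91 groups with another on the chromosome, and 20 of 93 had one within 1 Mb. Only 9 groups lay within 100 kb of another, forming 4 runs. The longest run was on chromosome 19 from 8951221 to 9067555, where 3 groups with 19 peaks spanned 116 kb. Runs of 2 groups lay on chromosome 10 from 119856943 to 119917405 with 13 peaks, on chromosome 11 from 100796004 to 100846165 with 10 peaks, and on chromosome 7 from 152422769 to 152485666 with 10 peaks. The chromosome 7 run ended 30.97 kb before the last listed peak of its chromosome.

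Most groups lay away from the chromosome ends, but the share of grouped peaks near the last listed peak was above that of the list. Within 2 Mb of the last listed peak lay 7 groups with 36 peaks, 6.75% of the grouped peaks, where 2.44% of all listed autosomal peaks lie. Of these 7, 3 were on chromosome 15 and 2 on chromosome 7, with 1 each on chromosomes 5 and 10. Only 1 group lay within 2 Mb of the first listed peak, the group of 7 peaks on chromosome 18 from 3004948 to 3010534. It begins with the first listed peak of that chromosome. Its peaks were 1.31% of the grouped peaks, where 1.92% of all listed autosomal peaks lie within that distance.

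Grouped peaks were short islands in mostly uncovered sequence. The median group spanned 17.5 kb (interquartile range 14.1 to 21.9 kb, full range 4.41 to 40.9 kb), and peaks covered a median of 2.76% of the span (0.797% to 14.9%). Groups of 5 made up 59 of the 93, groups of 6 made up 18, and 3 groups reached 11 peaks. Neighbouring peaks were separated by a median gap of 3253 bp, with 100 of 440 gaps (22.7%) under 1 kb and 139 (31.6%) over 5 kb. In 62 groups at least 1 gap was under 1 kb. The most compact group, on chromosome 6 from 51405949 to 51410356, held its 5 peaks within 4.41 kb, and the widest, on chromosome 1 from 164114291 to 164155239, spread 11 peaks over 40.9 kb.

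The 3 largest groups hold 11 peaks each and differed in how reads of the positive and negative sets were laid out along them. Reads are given here as counts in the strand windows, which sum forward and reverse reads around a peak and can reach beyond it. Negative reads were multiplied by 3.32, the factor that the deposited fold values contain, before ratios were formed, and ratios carry exact conditional binomial 95% intervals. These intervals cover counting error only, since PCR copies are not independent molecules and whether a peak is listed depended on the reads themselves.

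On chromosome 9 from 41398121 to 41412216, positive reads along the 11 peaks were 23, 40, 56, 71, 54, 52, 27, 52, 33, 22 and 24. They were highest in the fourth peak, from 41401459 to 41401537, and lowest in the tenth, first and last peaks, at 22, 23 and 24. Negative reads were 0, 21, 10, 5, 2, 0, 3, 3, 0, 0 and 6, so the second peak, from 41399546 to 41399637, carried 42.0% of them. All 21 of its negative reads were on the reverse strand, and its own ratio was 0.574. The whole group stood at 454 positive against 50 negative reads, a ratio of 2.73 (2.04 to 3.74).

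On chromosome 5 from 143659144 to 143677942, positive reads were 34, 45, 88, 50, 42, 24, 26, 29, 43, 23 and 38. The third peak, from 143663206 to 143663716, was the broadest of all 533 at 511 bp and held 88 positive reads and no negative read. Its next neighbours, 75 bp and then 282 bp further on, held 22 and 20 negative reads and had ratios of 0.684 and 0.632. With 442 positive against 73 negative reads, the group ratio was 1.82 (1.42 to 2.37). Peaks with and without negative reads in their strand windows thus lay under 1 kb apart in this group. Over the peaks themselves, only the fourth held negative reads, 3 in number. Windows of such close neighbours may hold the same reads.

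On chromosome 1 from 164114291 to 164155239, positive reads were 32, 28, 25, 34, 34, 49, 35, 27, 40, 57 and 49. Negative reads were present at 1 of the 11 peaks, from 164147541 to 164147581, with 5 reads on the reverse strand. The group ratio was 24.7 (10.5 to 76.4), and its interval did not overlap those of the other 2 groups of 11. The highest positive counts, 57 and 49, were in the last pair of peaks, and the sixth peak, from 164137793 to 164137879, also had 49 and was the best-ranked of the group at 209.

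**Figure D2:**
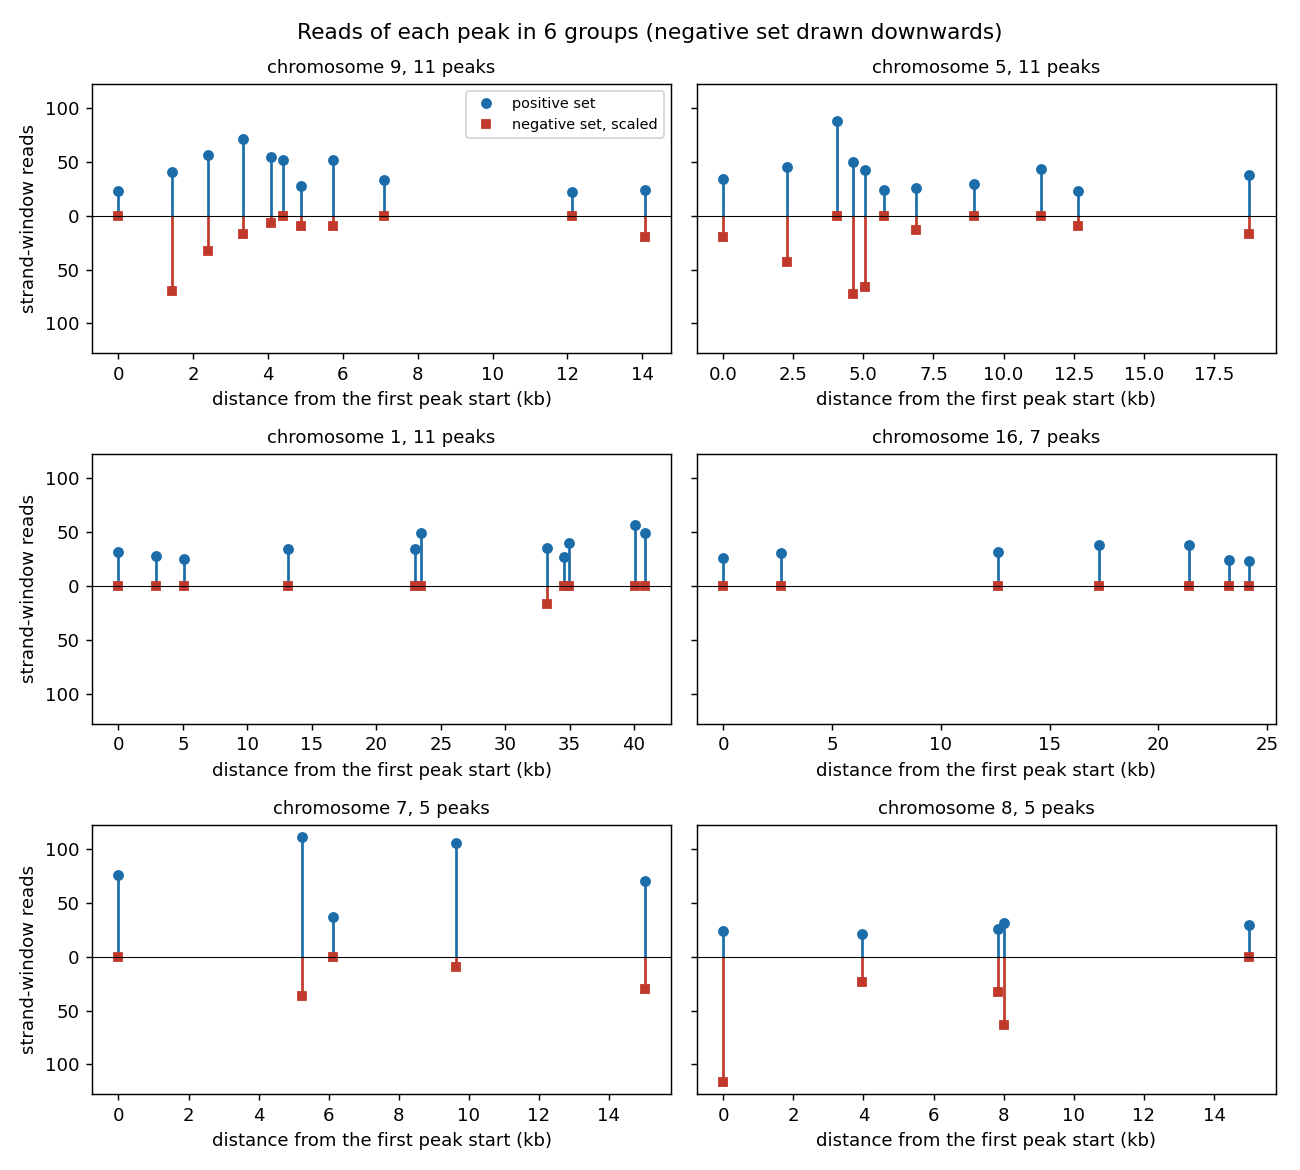
Strand-window reads of each peak (vertical axis, positive set upwards in blue, negative set scaled by 3.32 downwards in red) against the distance from the start of the first peak in kb, for the 3 groups of 11 peaks, the group of 7 on chromosome 16, the group on chromosome 7 with the best-ranked peak and the group on chromosome 8 with the lowest ratio. Negative reads stand at 7 of 11 peaks on chromosomes 9 and 5, at 1 of 11 on chromosome 1, at none on chromosome 16 and at 4 of 5 on chromosome 8.

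Positive reads were spread fairly evenly over the peaks of a group. Only listed peaks, which all hold at least 12 positive reads, enter this description. The evenness was not compared with that among other listed peaks. Counting reads over the whole peak, the median grouped peak held 32 positive reads (interquartile range 25 to 40), against 28 (24 to 34) over all listed peaks. The strongest peak of a group held a median of 26.3% of the group's positive reads (14.4% to 50.7%) and 1.46 times the group's median peak (1.06 to 3.31). Of the 533 peaks, 63 (11.8%, exact Clopper-Pearson 95% interval 9.20% to 14.9%) held 50 or more positive reads, where 4.23% of all listed peaks do. Intervals of shares treat peaks as independent, although peaks of a group share their locus, so they cover counting error only. These 63 peaks lay in 39 groups, and 54 groups had none. Only 4 groups held 3 or more of them: the chromosome 9 group of 11, the chromosome 18 group of 7 and the chromosome 7 group that ends at 152485666 with 4 each, and the chromosome 5 group from 125862915 to 125873761 with 3.

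The grouped peaks with the most positive reads over the whole peak, at 149 and 121, lay near the distal end of chromosome 7. Peaks on chromosomes 15 and 18 followed with 111 and 110, ahead of another on chromosome 7 with 105. In the strand windows, the chromosome 18 peak held 146 positive reads, above the 138 of the chromosome 7 peak with 149. In the group from 152470193 to 152485666, the 5 peaks held 76, 121, 44, 105 and 63 positive reads over the whole peak. The second of them, from 152475427 to 152475459, is 33 bp long and ranks 5 in the authors' deposited list. It had 111 positive and 11 negative strand-window reads, a ratio of 3.04 (1.63 to 6.26). The fourth, from 152479821 to 152479940, had 105 against 3, a ratio of 10.5 (3.51 to 51.9). The neighbouring group from 152422769 to 152452393 held 31, 47, 149, 22 and 45 positive reads, so 50.7% of its reads were in the 32 bp peak from 152439141 to 152439172. That peak had 9 negative reads over its width and a strand ratio of 2.77 (1.62 to 5.08). Both groups had similar ratios, 5.22 (3.43 to 8.34) and 4.80 (2.98 to 8.22), with intervals that overlapped nearly throughout.

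Another 2 groups held a peak among the 100 best-ranked. On chromosome 5 from 125862915 to 125873761, the 6 peaks held 77, 57, 46, 75, 48 and 21 positive reads over the whole peak. The fourth of them, from 125864446 to 125864475, ranks 48 with a strand ratio of 4.52 (1.85 to 14.3). This was the only group in which every peak had negative strand reads, from 2 to 12 per peak, and its ratio was 2.91 (2.03 to 4.30). On chromosome 15 from 78758814 to 78773660, the peak from 78761011 to 78761110 ranks 73 and had 108 against 2 strand-window reads, a ratio of 16.3 (4.39 to 136). The 29 bp peak 224 bp further on had 47 against 19, a ratio of 0.745. The fifth best-ranked grouped peak, on chromosome 17 from 71081356 to 71081434, ranks 203, with 49 positive reads and no negative read, a ratio of at least 4.92. Such bounds set the unseen negative reads to a floor of 3 in the pooled negative set. The exact lower limit for this peak was 3.85.

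Set against the negative reads, the groups ranged from more scaled negative than positive strand-window reads to no negative read at all. Summed over the 533 peaks, 18673 positive stood against 1631 negative strand-window reads, a ratio of 3.45 (3.28 to 3.63), compared with 5.72 (5.67 to 5.77) over the whole list. This ratio depends on the window: counted over the peaks themselves, the same 533 peaks held 18811 positive reads and only 30 of the negative set, which gives 189 (132 to 279.9). The whole-peak ratio of the whole list is not given here, so this value has no comparison. Over the 78 groups with negative reads the median ratio was 3.44 (interquartile range 2.34 to 7.73, full range 0.556 to 68.9). The interval lay wholly above 2 in 40 groups, across 2 in 31 and wholly under 2 in 7, and 15 groups had no negative read. Over all 4359 autosomal groups of 2 or more peaks, 10.7% had an interval above 2, 27.3% across 2, 5.51% under 2, and 56.5% had no negative read.

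Counted together, 55 of the 93 groups (59.1%, 48.5% to 69.2%) had an interval above 2 or no negative read, where 67.1% of all autosomal groups of 2 or more do. The size of these shares depends on how many reads a group holds. Among the 261 smaller groups, of 2 to 4 peaks, with at least 118 positive strand-window reads, the lowest total of any of the 93, the share was 59.4% (53.2% to 65.4%), with 34.5% above 2 and 24.9% without negative reads. Read totals were matched only at this minimum: the 261 groups held a median of 131 reads (at most 232), and the 93 groups a median of 177 (at most 454).

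**Figure D3:**
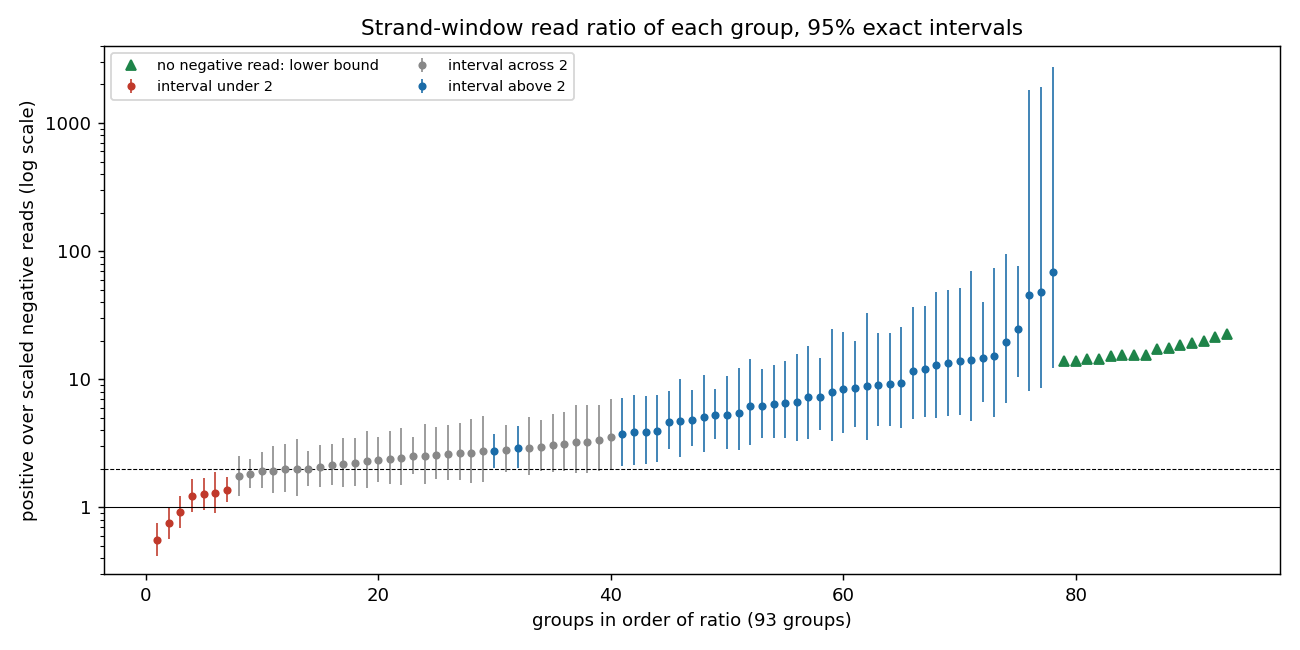
Ratio of positive to scaled negative strand-window reads (log axis) for the 93 groups in order of ratio, with exact 95% intervals. Intervals lie under 2 in 7 groups (red), across 2 in 31 (grey) and above 2 in 40 (blue), and green triangles give the lower bounds of 15 groups without negative reads, from 13.8 to 22.5.

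The 15 groups without any negative read lay on 10 chromosomes and had lower bounds of the ratio from 13.8 to 22.5 at the floor of 3 reads. The lower limits of their exact 95% intervals were somewhat lower, from 11.1 to 18.1. The most positive reads among them were on chromosome 15 from 103016109 to 103046554, where 5 peaks held 57, 42, 32, 37 and 56 strand-window reads. On chromosome 16 from 55952185 to 55976404, 7 peaks held 26, 31, 32, 38, 38, 24 and 23. On chromosome 11 from 114529906 to 114536549, 5 peaks held 199 reads within 6.64 kb, at least 19.97-fold higher at the floor, with an exact lower limit of 16.1. The groups on chromosome 4 from 134469605 to 134484458 and on chromosome 2 from 118580316 to 118596899 had 190 and 184 reads, at least 19.1-fold and 18.5-fold higher. Since every bound is the positive reads over a constant floor, their order is the order of positive reads.

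High ratios were also found in groups with very few negative reads. The group of 8 peaks on chromosome 10 from 119889188 to 119917405 had positive reads between 22 and 33 at every peak and 1 negative read in all, giving a ratio of 68.9 (12.3 to 2735). Single negative reads likewise lay behind the ratio of 47.9 (8.47 to 1903) of the chromosome 11 group that spans 113520688 to 113541530. The same was true of the ratio of 45.5 (8.04 to 1808) on chromosome 18, between 5150825 and 5165660. The chromosome 15 group from 85538552 to 85546323 had 193 against 3 reads, a ratio of 19.4 (6.53 to 94.7). These intervals overlap one another, so the groups cannot be ordered by ratio.

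At the other end, 3 groups had more scaled negative than positive reads in the strand windows. Over the peaks themselves, these 3 groups held 0 negative reads, against 132, 173 and 226 positive reads on chromosomes 8, 15 and 3. On chromosome 8 from 73389698 to 73404789, positive reads were 24, 21, 26, 31 and 29, and negative reads 35, 7, 10, 19 and 0, before scaling. Its ratio was 0.556 (0.413 to 0.752), the only one of the 93 with an interval wholly under 1. On chromosome 15 from 98855901 to 98878488, the ratio was 0.755 (0.568 to 1.013), with negative reads at the first 4 of 6 peaks and none at the last 2. On chromosome 3 from 107531395 to 107547799, the ratio was 0.912 (0.692 to 1.22), and 5 of the 7 peaks were 29 to 31 bp long. The next lowest ratio, 1.23 (0.912 to 1.67), was that of the most compact group, on chromosome 6. It was followed by 1.26 (0.955 to 1.69) in the chromosome 17 group between 71081356 and 71104505, which also holds the peak ranked 203. In the chromosome 17 group, 1 peak of 29 bp, from 71087080 to 71087108, held 44 of the 63 negative reads.

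The chromosome 18 group at the first listed peak combined many reads of both sets. Its 7 peaks held 35, 146, 68, 85, 40, 22 and 23 positive and 15, 21, 16, 23, 4, 13 and 0 negative strand-window reads within 5.59 kb. The ratio was 1.37 (1.09 to 1.74), and 5 of the 7 peaks were 29 to 31 bp long. Gaps in this group were as short as 105 bp, so that strand windows of neighbours may hold the same reads.

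Negative reads were concentrated in part of the peaks. They stood at 184 of the 533 peaks (34.5%, 30.5% to 38.7%), where 18.8% of all listed peaks have them. In 29 of the 78 groups with negative reads they stood at a single peak, and in 24 at more than 50% of the peaks. The 10 groups with most held 635 of the 1631 negative reads (38.9%). Where present, the median was 7 reads, and the peak's own ratio had a median of 1.41 (interquartile range 0.903 to 3.01). Of the 533 peaks, 54 had a ratio of 1 or less (10.1%, 7.70% to 13.0%), against 6.58% of all listed peaks, and 113 had a ratio under 2 (21.2%, 17.8% to 24.9%), against 12.6%. In the authors' deposited table, 8 of the 533 (1.501%, 0.650% to 2.94%) had a log2 fold under 0 on a strand, against 0.444% of the list. The deposited false discovery rate was at or under 0.01 for 328 (61.5%, 57.3% to 65.7%), against 55.9% of the list. Negative reads lay on 1 strand in 149 of the 184 peaks, forward in 70 and reverse in 79, and on both strands in 35 (19.02%, 13.6% to 25.4%). Over single autosomal peaks with negative reads, both strands were covered in 9.17% (8.17% to 10.2%). Positive reads had a median of 50% on the forward strand (interquartile range 44.0% to 56.2%), the same median as over single autosomal peaks. Over 75% of them lay on 1 strand in 5 of the 533 peaks (0.938%, 0.305% to 2.18%), against 0.257% of single autosomal peaks (0.191% to 0.338%). How far the listing of peaks set this balance was not tested.

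Peaks closest to a neighbour had more positive reads and more often had negative reads in their strand windows. These windows reach beyond the peak, so windows of close neighbours may hold the same reads, and this overlap was not tested. The 172 peaks with a neighbour under 1 kb away had a median of 34 positive reads, and 44.8% (37.2% to 52.5%) had negative reads. In the 206 peaks whose nearest neighbour was over 3 kb away, the median was 29 and the share 29.1% (23.0% to 35.8%). The summed ratios were 2.78 (2.58 to 3.00) and 4.05 (3.70 to 4.45). Likewise the 12 groups that span under 10 kb had a ratio of 2.30 (2.05 to 2.58), and the 31 groups of 20 kb or more a ratio of 3.92 (3.58 to 4.31). Across the 78 groups with negative reads, however, the correlation of span with the log2 ratio was weak (Spearman's rho 0.148, Pearson's r 0.196), and all groups share the same pooled read sets.

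Grouped peaks were somewhat wider than the list as a whole. Their median width was 64 bp (interquartile range 43 to 92 bp), against 56 bp (38 to 77 bp) over all listed peaks and 55 bp (38 to 76 bp) over single autosomal peaks. Widths of 100 bp or more were found in 119 of 533 (22.3%, 18.9% to 26.1%), against 12.2% of single autosomal peaks (11.7% to 12.6%). Very short peaks of 29 to 31 bp numbered 83 (15.6%, 12.6% to 18.9%), where 17.8% of all listed peaks are that short. That share is within the interval, which covers counting error only. Counted in the highest single window of the peak, which does not grow with width, the medians were 26 positive reads in grouped and 25 in all listed peaks. The difference in positive reads over the whole peak was therefore larger than that in window height. The forward-strand mode preceded the reverse-strand mode in 88.9% of grouped peaks (86.0% to 91.5%) and in 93.5% of single autosomal peaks (93.1% to 93.8%).

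The number of peaks in a group went along with the reads of both sets, beginning below groups of 5. In autosomal megabases under 40 peaks, negative reads stood at 15.5% of single peaks, 20.7% of peaks in pairs, 26.6% in groups of 3 and 30.4% in groups of 4. In groups of 5, 6, 7 and 8 or more the shares were 31.2%, 38.0%, 42.9% and 36.5%, with intervals that overlapped one another. Peaks with 50 or more positive reads made up 3.16%, 4.83%, 6.03% and 7.29% of groups of 1 to 4, and 11.5%, 11.1%, 10.7% and 14.9% of the larger groups. The summed ratio was 7.02 for single peaks and 3.31 (3.18 to 3.44) for groups of 4. For groups of 5 it was 4.29 (3.97 to 4.63), and for the 8 groups of 7 it was 2.08 (1.84 to 2.36). The ratio thus did not fall evenly with size. No test between these sets was made, because peaks of a group share their locus and all sets share the same pooled reads.

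**Figure D4:**
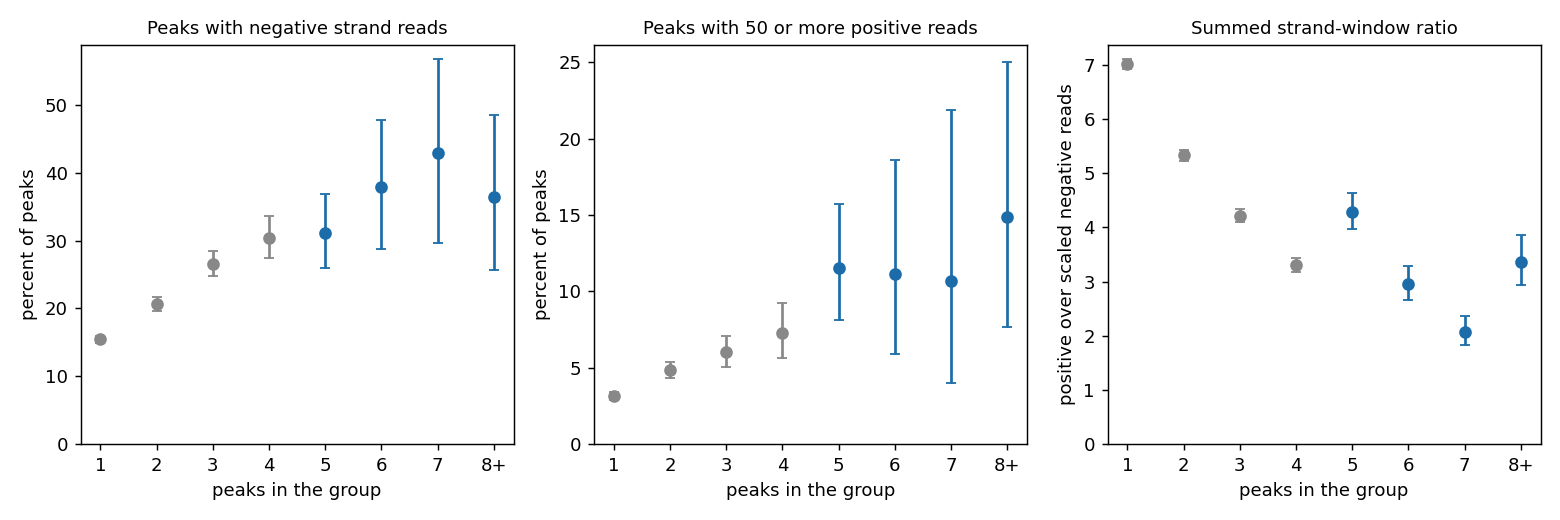
Share of peaks with negative strand reads, share with 50 or more positive reads (both in percent) and summed ratio of positive to scaled negative reads, against the number of peaks in the group, with exact 95% intervals; grey points are smaller groups and blue points the groups of 5 or more. The share with negative reads is 15.5% for single peaks and 31.2% for groups of 5, while the ratio is 7.02 and 4.29.

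Part of this difference was shared by other peaks of the same megabases. Single peaks in the 89 megabases that hold the groups had negative reads at 19.96% (17.5% to 22.6%) and a ratio of 5.30 (5.05 to 5.56), between the values of grouped peaks and of all single autosomal peaks, at 15.7% and 6.91 (6.82 to 6.997). Groups of 2 to 4 in these megabases, at 30.1% (27.0% to 33.4%) and 3.53 (3.38 to 3.69), had intervals that overlapped those of the larger groups. By chromosome, grouped peaks had the higher share with negative reads on 17 of 19 autosomes and the higher mean positive reads on 18 of 19, compared with single peaks of the same chromosome. Their ratio was lower on 15 of the 18 autosomes where it could be formed. On chromosome 2, where it could not, the grouped peaks had 184 positive and no negative reads, a ratio of at least 18.5, against 8.18 for single peaks.

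The excess of positive over scaled negative reads, averaged over all grouped peaks, was close to that of single peaks but differed between group sizes. Grouped peaks had a mean of 35.0 positive and 10.2 scaled negative strand-window reads, an excess of 24.9. Single autosomal peaks had 29.4 and 4.25, an excess of 25.1, and groups of 2 to 4 had 31.03 and 6.64, an excess of 24.4. Among the grouped peaks the excess was 26.7 in groups of 5, 22.9 in groups of 6, 18.5 in groups of 7 and 25.4 in groups of 8 or more. The value for groups of 7 rests on 8 groups with 289 negative reads. Of these reads, 92, 69 and 63 were in the groups starting at 3004948 on chromosome 18, 107531395 on chromosome 3 and 71081356 on chromosome 17. Whether copy number, mappability or local read depth differed at these loci was not tested.

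At the edges of the rule, some values ran on and others did not. The 295 peaks of groups of 5 had negative reads at 31.2% (25.9% to 36.8%), and the 864 peaks of 216 groups of 4 just outside had them at 30.4% (27.4% to 33.6%). Peaks with 50 or more positive reads made up 11.5% (8.12% to 15.7%) inside and 7.29% (5.65% to 9.23%) outside. The summed ratios, 4.29 (3.97 to 4.63) and 3.31 (3.18 to 3.44), had intervals that did not overlap. Groups in megabases of 37 to 39 peaks numbered 9, with ratios from 0.755 to 15.2 in the 8 that had negative reads. Among the 6 groups just outside, in megabases of 40 or 41 peaks, the lowest ratio was 0.842 (0.630 to 1.14), in a chromosome 19 group starting at 4309897. The highest was 19.7 (5.35 to 165), in a chromosome 11 group starting at 120424107.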

How the data were processed

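RAP1 immunoprecipitates of 2 wild-type and 2 Rap1-deleted lines and 1 input were represented by 1 deposited peak list in mm9 coordinates, per the submitters' processing notes. For the aligner, peak caller and read filtering, the methods are not given in the sources used here. Per the file headers, the list holds counts of positive and negative reads over each peak and in strand windows, not normalised. It also holds the highest window, a coverage signal in reads, and fold values that the authors deposited on a log2 scale. The false discovery rate that the authors deposited is a q-value of their peak caller. A deposited column named Delta was not used. The highest windows and the deposited ranks were used to describe peaks within the list.

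Per the design text, the positive set was read as wild-type and the negative set as Rap1-deleted; the headers do not say so. The factor of 3.32 was solved from 141 strand entries, of which 140 returned it within 0.001. Strand windows were preferred because only 10 of the 533 peaks have a negative read in the whole-peak column, while 184 have one in the windows. The share of all listed peaks with a whole-peak negative read is not given here. Comparisons of negative reads with the list therefore rest on the windows alone. Ratios have exact conditional binomial and shares exact Clopper-Pearson 95% intervals. The coverage of the ratio intervals was tested on simulated reads drawn from the same binomial model that they assume. The share intervals were not tested in this way. The floor was 3 negative reads. Medians in the closing section have exact binomial intervals. Work was done in Python 3.11.15 with pandas 2.3.3 and scipy 1.17.1.

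Named groups were the 10 with most peaks, the 5 with the highest and the 5 with the lowest ratio, and the 5 with most positive reads among those without negative reads. Named peaks were the 5 best-ranked, the 5 with most positive reads and those of the 3 largest groups. Other named groups, runs and distance classes were chosen after their values were seen. Members and lists were chosen with earlier results of these data known. No comparison between libraries was possible, and no gene was assigned.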

Additional observations from a re-analysis of the deposited data

How the results depend on the processing

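No paired analysis was possible because the deposited list pools the libraries, so that the shared replicate numbers 1 and 2 have no values. Of 256 values recomputed, 213 stayed within the interval of the reported value (counts within 1.5 times) and 43 moved. A change of direction was defined only for the ratio, as a fall to 1 or less, and none of its 35 values did so. Many settings left out 1 chromosome and so kept most of the same peaks. Among these, only the ratio without chromosome 17 moved. The number of groups, 93, was set by the rule. It was 25 with gaps of 5 kb, 370 with 20 kb, 309 with groups of 4 or more and 34 with 6 or more. A false discovery rate at or under 0.01 gave 15 groups. Counting peaks within 1 kb as 1 for group size gave 54, and leaving out peaks of 29 to 31 bp gave 50. Under the same 7 settings, groups with a ratio interval above 2 numbered 10, 169, 99, 14, 8, 25 and 23. With gaps of 5 kb, gaps of 20 kb and the false discovery limit, in that order, negative reads stood at 46.9%, 30.2% and 39.3% of peaks, 50 or more positive reads at 18.6%, 7.54% and 15.5%, median positive reads were 36, 30 and 35.5, gaps under 1 kb made up 40.8%, 11.9% and 27.5%, and the ratio was 2.60, 3.71 and 2.57. The ratio was 2.78 with groups of 6 or more, 3.87 in megabases under 30 peaks, 3.27 with no megabase limit, 3.63 without chromosome 17, 4.01 without short peaks, 3.67 on the forward and 3.24 on the reverse strand, 11.4 unscaled and 189 in the whole-peak columns, where 10 of the 533 peaks have a negative read. Groups of 4 or more gave 9.02% with 50 or more positive reads, and limits of 40 and 75 reads gave 27.0% and 2.63%. With peaks within 1 kb counted as 1 only for group size, 13.6% of the gaps between the unmerged peaks were under 1 kb. Leaving out short peaks gave a median width of 71.5 bp. Leaving out any other chromosome, the largest group, or groups within 2 Mb of a chromosome end moved none of these values. Leaving out short peaks, those groups near the ends and the first group of chromosome 18 were added after the data were seen. Low read counts limit single ratios: those with 1 negative read span over 2 orders of magnitude. The causes were not tested.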
